A study of Homo sapiens with 5 samples.

Results

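The growth factor receptor tyrosine kinases described here are EGFR, ERBB2, ERBB3, MET, AXL, IGF1R, FGFR1, FGFR2, FGFR3 and FGFR4, receptors known to be active in liver cancer. They are 10 genes among 19090 with a named probe, and all their probes were taken, which are 18 of 28264 on the array. The choice was made by gene name and not by a rule on measured levels, though earlier results of these data were known. Expression was measured by 1-colour microarray in MHCC97H, a human hepatocellular carcinoma cell line with high metastatic potential. The cells stably carried an empty vector (2 arrays), ACOT12 (2 arrays) or a mutated ACOT12 (a single array), and all of them had been through 1 week of puromycin selection. ACOT12 is a cytosolic enzyme that splits acetyl-CoA into acetate and coenzyme A, and the study asked which genes it regulates. The labels do not name the mutated residue or the promoter of the vector, and do not say whether replicates were grown as separate cultures. The p-values therefore reflect the spread among these arrays alone, which may be technical.

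These receptors sit in the plasma membrane, bind a secreted growth factor on the outside and phosphorylate tyrosines on the inside. The phosphotyrosines recruit adaptors that start the RAS and ERK cascade and the PI3K and AKT cascade, which drive growth, survival and movement. EGFR, ERBB2 and ERBB3 form pairs with each other on binding EGF-like ligands or neuregulins, with no known soluble ligand for ERBB2 and little kinase activity in ERBB3. MET binds hepatocyte growth factor, AXL binds GAS6, IGF1R binds the insulin-like growth factors, and the FGF receptors bind fibroblast growth factors with heparan sulphate or klotho coreceptors. In liver, hepatocyte regeneration depends largely on MET and EGFR, and FGFR4 with beta-klotho receives the bile acid signal FGF19.

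ACOT12 itself was read first as a check of the labels. Its normalised intensity was 62.5 and 36.2 on the empty vector arrays, 4700 and 4759 on the ACOT12 arrays and 4225 on the mutant array. ACOT12 arrays stood 6.61 ± 0.26 (SE) log2 units above empty vector (adjusted p = 0.00356 by limma). The mutant stood 6.44 ± 0.32 above it (adjusted p = 0.00480). Neither difference passed without scaling between arrays (7.15, adjusted p = 0.109, and 6.90, adjusted p = 0.0510). Without ACOT12 replicate 1 the differences were 6.73 and 6.56 (adjusted p = 0.571 and 0.158), and without ACOT12 replicate 2 they were 6.75 and 6.60 (adjusted p = 0.286 and 0.160), close in size but not past the threshold. The empty vector readings are near the floor of the array, so the size of these differences is not resolved. All 13 liver markers with a probe were bright enough to be tested, and their summed intensity lay between 185507 and 215728 on the 5 arrays. Of that sum 116219 to 150332 came from the keratin gene KRT18, while albumin (ALB) read 2696 and 2899 with empty vector, 1695 and 1123 with ACOT12 and 999 with the mutant. Of 9 immune genes with a probe 6 were bright enough to be tested, among them CD3D (6327 to 10820) and CD68 (8151 to 11278), whereas PTPRC, LYZ and CD3E were not. Medians of the intensities as deposited lay between 616 on the mutant array and 825, a difference that quantile normalization removed.

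Of the 18 receptor probes, 13 were bright enough to be tested, that is, at or above the 25th percentile of mean level (log2 of 7.34). They represent EGFR with 3 probes, ERBB3 with 3, MET and IGF1R with 2 each, and ERBB2, AXL and FGFR3 with 1 each. The remaining 5 probes, for FGFR1, FGFR2 and FGFR4, fell under that level, and no test of them is reported. Brightness differs between probes for reasons other than transcript number, so no receptor's level is set against another's. The probes of 1 receptor are numbered below from bright to dim.

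EGFR, the receptor for EGF, TGF-alpha, epiregulin and related ligands, was read by 3 probes whose order over the groups was the same. On probe 1 (PH_hs_0004462) normalised intensity was 771 and 690 with empty vector, 788 and 776 with ACOT12 and 994 with the mutant. On probe 2 (PH_hs_0044733) it was 614 and 516, then 706 and 598, then 958. On probe 3 (PH_hs_0045536) it was 379 and 326, then 383 and 363, then 538. After normalization the mutant array was the highest of the 5 on each of the 3 EGFR probes, and the ACOT12 arrays overlapped with empty vector on 2 of them. As deposited the mutant was highest on probe 2 only. There it read 846 on probe 1, against 856 and 853 with ACOT12, and 429 on probe 3, against 434 and 426.

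ERBB2, the shared partner of the other EGF receptors, read 687 and 773 with empty vector, 618 and 1097 with ACOT12 and 869 with the mutant. The ACOT12 arrays lay on either side of every other array, so the groups overlapped for this receptor. ERBB3, the neuregulin receptor, gave a different picture on each of its 3 probes. Its probe 1 (PH_hs_0032594) read 2832 and 2771 with empty vector, 2354 and 1762 with ACOT12 and 1906 with the mutant, so that both transgenes lay under both empty vector arrays. Probe 2 (PH_hs_0061001) read 1159 and 1057, then 966 and 1068, then 673, so that the mutant array alone stood apart. Probe 3 (PH_hs_0044687) read 673 and 742, then 590 and 654, then 797, with the mutant highest.

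MET, the receptor for hepatocyte growth factor, was read by 2 probes that moved in opposite ways. Probe 1 (PH_hs_0049305) read 193462 and 186911 with empty vector, 188668 and 234624 with ACOT12 and 229525 with the mutant. Probe 2 (PH_hs_0025104) read 54803 and 57624, then 57297 and 48167, then 48999. ACOT12 replicate 2 and the mutant were thus the highest arrays on the first probe and the lowest on the second.

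AXL, a receptor of the TYRO3, AXL and MERTK family linked to invasion, had the widest spread of the receptor probes tested, 1.51 log2 units from lowest to highest array. It read 3536 and 2170 with empty vector, 6167 and 2712 with ACOT12 and 4772 with the mutant. The arrays of 1 group differed 1.63-fold with empty vector and 2.27-fold with ACOT12, and the arrays labelled replicate 1 were the higher ones in both groups. FGFR3, an FGF receptor, had the same form. It read 2163 and 1400 with empty vector, 2234 and 1068 with ACOT12 and 1685 with the mutant, so its spread lay within the groups and not between them.

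IGF1R, which binds IGF1 and IGF2, read 4306 and 4866 on probe 1 (PH_hs_0027200) with empty vector, 3761 and 3994 with ACOT12 and 3805 with the mutant. On this probe both transgenes lay under both empty vector arrays. Its probe 2 (PH_hs_0012894) read 678 and 971, then 910 and 724, then 978, and the ACOT12 arrays fell between the empty vector arrays.

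**Figure D1:**
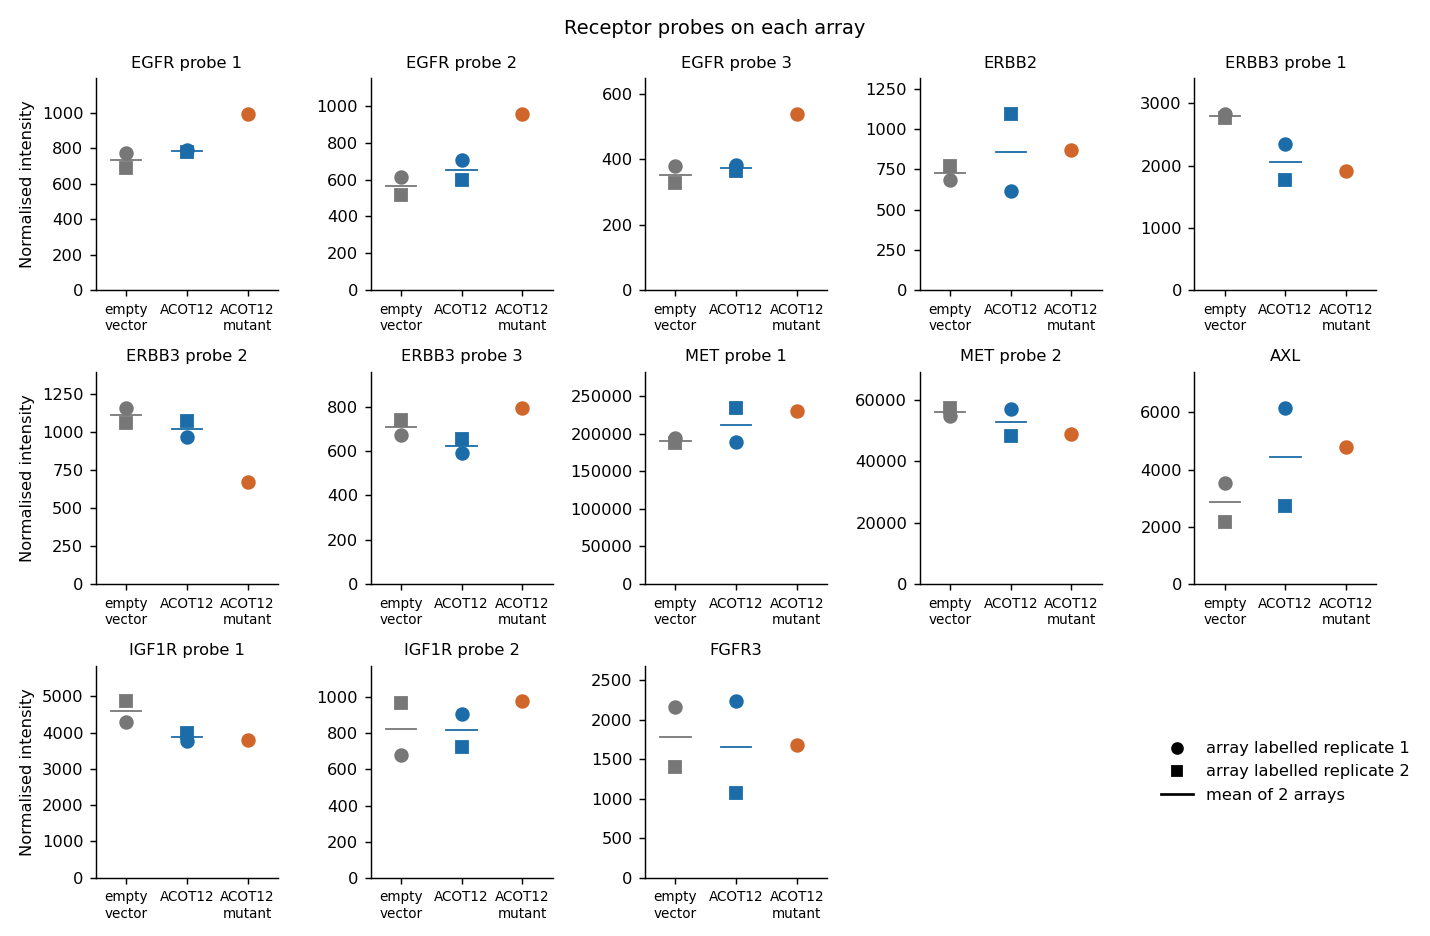
Normalised intensity (linear axis from 0, quantile normalized between arrays) of the 13 receptor probes tested on each of the 5 arrays. Grey is empty vector, blue is ACOT12 and orange is the 1 mutant array, circles and squares are the labelled replicates 1 and 2, and bars are means of 2 arrays. In these normalised values EGFR is highest on the mutant array on all 3 probes. AXL and FGFR3 have the largest fold between arrays of the same group (2.27 and 2.09 with ACOT12).

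FGFR1, FGFR2 and FGFR4 were dim on all 5 arrays. As deposited, the 2 probes of FGFR1 read from −4.5 to 53.5 and from 39.8 to 90.2 intensity units. The 2 probes of FGFR2 read from 68.5 to 146 and from 55.2 to 106, and the probe of FGFR4 from −13.5 to 34.7. The 25th percentile of all probes lay between 122 and 200 on these arrays. On FGFR1 and FGFR4 the ACOT12 arrays read above the empty vector arrays as deposited, and the 25th percentile of all probes was also higher on them (193 and 200, against 169 and 131). After normalization FGFR4 and the brighter FGFR1 probe overlapped between those groups. No flag of detection came with the values used here, so these readings cannot be told from background.

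The first comparison asked what ACOT12 changes against empty vector, and 0 of 13 receptor probes passed the test (limma, Benjamini-Hochberg adjustment over all probes, every adjusted p = 1.00). Over all 21198 probes tested, 0.00943% passed (0.00472% higher and 0.00472% lower). At an unadjusted p under 0.05 there was 1 receptor probe, against 2.17% of all probes (0.778% higher and 1.4% lower). That was ERBB3 probe 1, at 2801 ± 43 normalised intensity with empty vector and 2058 ± 419 with ACOT12 (SD, n = 2 each), a log2 difference of −0.46 ± 0.18 (SE). The other 2 probes of ERBB3 read −0.12 ± 0.15 and −0.19 ± 0.15. In bulk RNA a change in RNA per cell and a change in the mix of cells cannot be told apart.

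The remaining receptors differed from empty vector by less than 2 SE. EGFR read 0.10 ± 0.15, 0.21 ± 0.17 and 0.09 ± 0.15 on its 3 probes, with 95% intervals that reached no further than −0.29 and 0.62. MET read 0.15 ± 0.17 and −0.10 ± 0.16, and IGF1R read −0.24 ± 0.15 and 0.00048 ± 0.22. ERBB2 read 0.18 ± 0.28 and FGFR3 −0.17 ± 0.38. For AXL the difference was 0.56 ± 0.42 with an interval from −0.45 to 1.57, so these arrays do not show whether AXL differed. Without ACOT12 replicate 1 it became −0.03 and without ACOT12 replicate 2 it became 1.16. The groups did not overlap for 4 of 13 probes (EGFR probe 1 higher; ERBB3 probes 1 and 3 and IGF1R probe 1 lower), beside 28.3% of all probes (11.6% higher and 16.8% lower). The median over the 13 probes was 0.00048 log2 units, beside −0.01 over all probes.

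**Figure D2:**
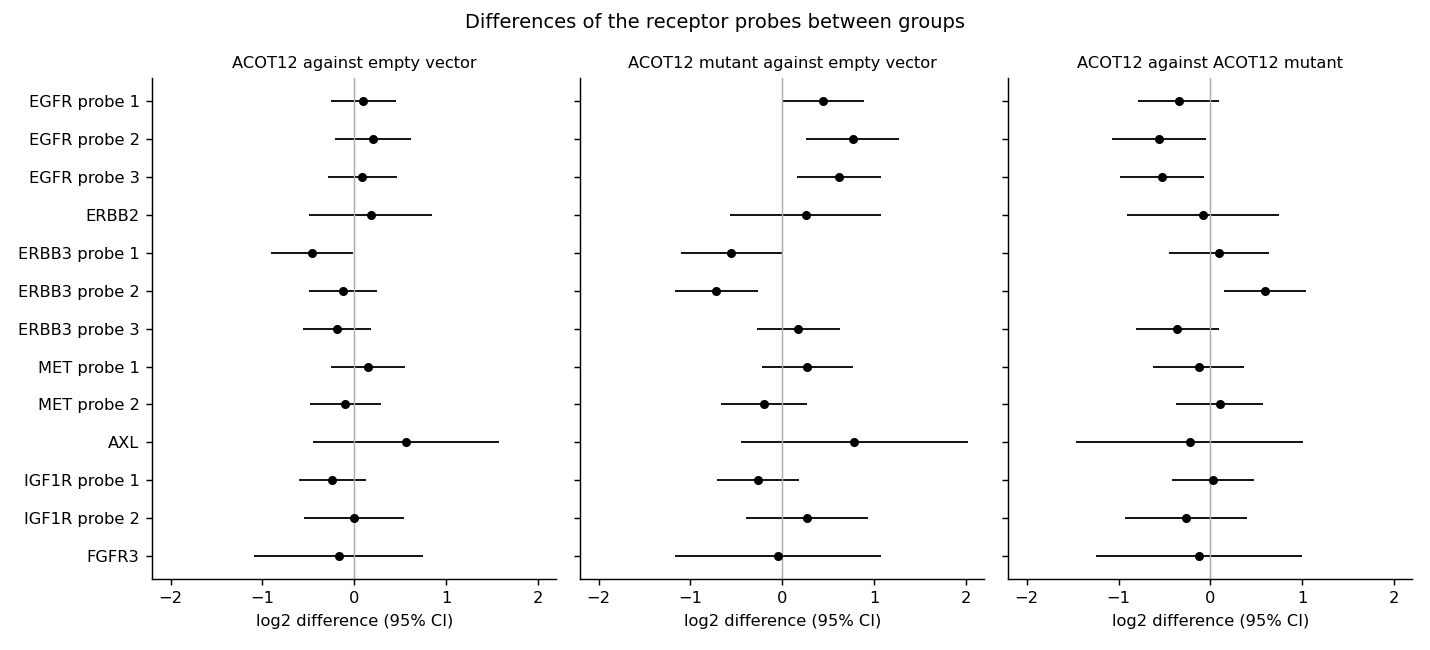
Log2 differences of the 13 receptor probes tested in the 3 comparisons, with 95% confidence intervals from limma (2, 2 and 1 arrays per group). No receptor passed after adjustment, and the intervals of AXL and FGFR3 are the widest.

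The mutant against empty vector gave higher readings for EGFR and lower ones for most of ERBB3, none past the threshold. The mutant has 1 array and no replicate check, and the test gives it the spread measured in the replicated groups. EGFR read 0.45 ± 0.18, 0.77 ± 0.21 and 0.61 ± 0.19 (SE) log2 units higher on its 3 probes, or 1.36-fold, 1.70-fold and 1.53-fold (limma, adjusted p = 0.241, 0.126 and 0.154). ERBB3 read −0.56 ± 0.23 on probe 1 and −0.72 ± 0.18 on probe 2 (adjusted p = 0.241 and 0.117), while its probe 3 read 0.17 ± 0.19. The probes of ERBB3 thus disagreed in direction, and those of EGFR did not. Passing the threshold were 0 of 13 receptor probes, against 0.0472% of all probes (0.00943% higher and 0.0377% lower). With an unadjusted p under 0.05 there were 5 of 13 (3 higher, 2 lower), against 20.4% of all probes (9.1% higher and 11.3% lower).

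Scaling changed the EGFR values. Median centring also made the test give nearly the same spread to each receptor probe. The p-values under it therefore hardly weigh a probe's own spread between arrays, which was wide for AXL. Without scaling between arrays the 3 differences were 0.21, 0.53 and 0.31. With each array centred on its median EGFR probe 2 passed at 0.81 (limma, adjusted p = 0.0277). ERBB3 probe 2 at −0.74 (adjusted p = 0.0461) and AXL at 1.00 (adjusted p = 0.00710) passed too. Under that centring 2913 of the 21198 probes tested passed (1350 higher and 1563 lower). AXL read 0.78 ± 0.51 in the normalised data (adjusted p = 0.436), with an interval from −0.45 to 2.02. That value was 1.14 without empty vector replicate 1, 0.43 without empty vector replicate 2 and 0.31 with the replicate number as a block. ERBB2 read 0.25 ± 0.34, MET 0.27 ± 0.20 and −0.20 ± 0.19, IGF1R −0.27 ± 0.18 and 0.27 ± 0.27, and FGFR3 −0.05 ± 0.46. The mutant array lay outside both empty vector arrays on 12 of 13 receptor probes (8 above and 4 below, all but FGFR3), beside 83.6% of all probes (43% above and 40.6% below). The median of the 13 probes was 0.25, beside 0.02 over all probes. Without scaling between arrays it was −0.01, beside −0.13 over all probes.

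No marker probe of another cell type passed for the mutant against empty vector, and the summed levels of the lists were as follows. The summed normalised intensity, with the brightest probe of each gene, of 9 fibroblast and stellate cell markers was 6074 there, 7086 to 8968 with empty vector and 8653 to 9254 with ACOT12, with 4 of the 9 bright enough to be tested. That of 9 endothelial markers was 3782, against 4694 to 4952 and 4609 to 5364, with 7 tested. For 9 immune markers it was 22397, against 22099 to 22420 and 21987 to 26153, and for 7 erythroid markers 4093, against 4147 to 4975 and 4421 to 5203, with 6 tested in each list. The mutant array was the lowest of the 5 for the fibroblast, endothelial and erythroid sums and lay within the empty vector range for the immune sum. Of the fibroblast sum COL1A1 gave 1039 on the mutant array, 3642 and 2347 with empty vector and 3841 and 3822 with ACOT12. Without that gene the mutant array was not the lowest for the fibroblast markers. Between ACOT12 and the mutant 3 marker probes passed, where 2.6% of all probes did. They were 1 of 16 liver probes (the apolipoprotein gene APOC3, 1.56 ± 0.26), 1 of 4 fibroblast probes (the collagen gene COL1A1, 1.88 ± 0.28) and 1 of 6 immune probes (the B cell gene MS4A1, −1.16 ± 0.18), each with a limma adjusted p = 0.0476. These calls rest on 1 mutant array, and the number of probes passing in that comparison changed widely with the processing. The part of these markers in the receptor readings was not tested.

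ACOT12 against the mutant, the comparison between the 2 forms of the enzyme, again gave 0 of 13 receptor probes past the threshold. Over all probes 2.6% passed (2.38% higher and 0.222% lower with ACOT12). ERBB3 probe 2 read 0.59 ± 0.18 log2 units higher with ACOT12 (limma, adjusted p = 0.125). Without scaling between arrays it was 1.00 and passed (adjusted p = 0.0422), where 2053 of the 21198 probes tested passed (2040 higher and 13 lower). EGFR read −0.35 ± 0.18, −0.56 ± 0.21 and −0.53 ± 0.19 (adjusted p = 0.323, 0.182 and 0.166). Without scaling these became 0.01, −0.18 and 0.0031, so the EGFR difference between the 2 forms of the enzyme depended on the scaling. The receptor probes with an unadjusted p under 0.05 were 3 of 13 (1 higher, 2 lower), against 23.1% of all probes (13% higher and 10.1% lower).

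The other receptor probes differed between the 2 forms by less than 2 SE. ERBB2 read −0.08 ± 0.34, MET −0.13 ± 0.20 and 0.10 ± 0.19, IGF1R 0.03 ± 0.18 and −0.27 ± 0.27, FGFR3 −0.13 ± 0.46 and AXL −0.22 ± 0.51. ERBB3 probe 1 read 0.10 ± 0.23 and its probe 3 −0.36 ± 0.19. The ACOT12 arrays did not overlap with the mutant on 6 of 13 probes (ERBB3 probe 2 above; all EGFR probes, ERBB3 probe 3 and IGF1R probe 2 below), beside 73.5% of all probes (31.6% above and 41.9% below).

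**Figure D3:**
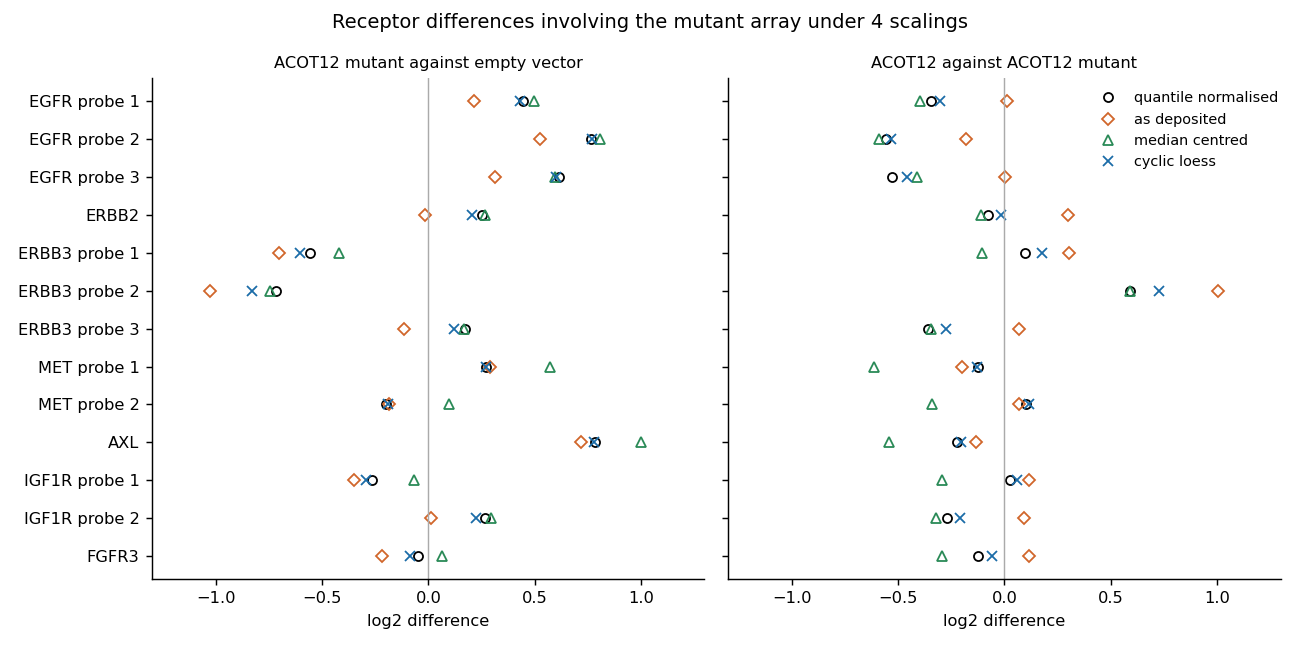
Log2 differences of the 13 receptor probes tested in the comparisons that use the mutant array, under 4 scalings (symbols). EGFR stays above 0 for the mutant against empty vector in all 4, and against ACOT12 the values as deposited of EGFR probes 1 and 3 lie at 0.01 and 0.0031.

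Around the receptors, 9 lists of pathway genes were read: ligands, coreceptors, adaptors, negative regulators, output genes, sheddases and the other receptor tyrosine kinases. Of 184 listed genes 168 had a probe and 146 were tested, with 205 probes. With ACOT12 against empty vector 0 of 205 probes passed (limma), and 5 had an unadjusted p under 0.05 (3 higher, 2 lower), beside 2.17% of all probes. With the mutant 0 passed and 18 higher and 17 lower probes had an unadjusted p under 0.05, beside 20.4% of all probes. Between ACOT12 and the mutant 3 of 205 passed, all higher with ACOT12, beside 2.38% of all probes higher, and 27 higher and 15 lower probes had an unadjusted p under 0.05, beside 23.1% of all probes. The 3 were SPRY3, of the Sprouty family of receptor signalling inhibitors (1.43 ± 0.24, adjusted p = 0.0476), and the receptor tyrosine kinases NTRK2 (1.64 ± 0.24, adjusted p = 0.0476) and ALK (2.05 ± 0.33, adjusted p = 0.0476). These calls rest on 1 mutant array, and the number of probes passing in this comparison changed widely with the processing, as given below.

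Among ligands of the EGF receptors, 14 probes of 9 genes had a median of 0.12 with ACOT12 and 0.18 with the mutant. Epiregulin (EREG), a ligand of EGFR, read 1592 and 1471 with empty vector, 2001 and 1947 with ACOT12 and 2271 with the mutant. Both transgenes lay above both empty vector arrays, by 0.37 ± 0.14 and 0.57 ± 0.18 log2 units (adjusted p = 1.00 and 0.156). TGFA, another EGFR ligand, read 0.31 ± 0.16 with ACOT12 (adjusted p = 1.00). The neuregulin gene NRG1, whose product binds ERBB3, read 0.66 ± 0.22 with the mutant on 1 probe (adjusted p = 0.170), and its other 5 tested probes lay between −0.48 and 0.52. NRG4 read −0.65 ± 0.20 between ACOT12 and the mutant (adjusted p = 0.127).

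The ligand of AXL, GAS6, read 1522 and 1232 with empty vector, 1618 and 1298 with ACOT12 and 794 with the mutant. It was thus lowest on the mutant array, by −0.79 ± 0.23 (adjusted p = 0.140). IGF1, a ligand of IGF1R, read −0.62 ± 0.18 and −0.56 on its 2 tested probes with the mutant (adjusted p = 0.142 for the first), and 0.82 ± 0.18 and 0.70 ± 0.18 between ACOT12 and the mutant (adjusted p = 0.0633 and 0.0831). The insulin gene INS read 0.27 ± 0.20 with ACOT12. The 8 probes of these other ligands had medians of 0.13 with ACOT12 and −0.22 with the mutant.

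Of the FGF ligands 8 of 12 genes were tested, with medians of 0.13 and 0.29. FGF1 read 0.78 ± 0.39 with ACOT12, where its arrays stood at 700 and 334 against 221 and 356, so the groups overlapped, and its other 2 tested probes read −0.12 and 0.13. FGF2 read 0.47 ± 0.19 with the mutant (adjusted p = 0.237), with its other probe at 0.27, and FGF22 −0.46 ± 0.19 (adjusted p = 0.251). FGF8 read 0.24 ± 0.17 with ACOT12, and between ACOT12 and the mutant FGF22 and FGF8 read 0.60 ± 0.19 and 0.56 ± 0.21, none past the threshold.

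Coreceptors and binding proteins had medians of −0.02 with ACOT12 and 0.06 with the mutant over 24 probes. IGFBP6, which binds IGF2 with high affinity, read 9309 and 8735 with empty vector, 13551 and 15983 with ACOT12 and 14549 with the mutant. Every array with a transgene lay above both empty vector arrays, by 0.71 ± 0.16 and 0.69 ± 0.19 log2 units, without passing (adjusted p = 1.00 and 0.131). IGFBP1, a binding protein secreted by liver, read 0.50 ± 0.16 with ACOT12 at 8274 and 7066 against 5666 and 5195. The mutant array was alike at 7821, or 0.53 ± 0.19 against empty vector, and neither difference passed. The coreceptor NRP1 read 0.95 ± 0.23 with the mutant (adjusted p = 0.104), though its other 2 tested probes lay between −0.44 and 0.14. IGFBP5 read 1.23 ± 0.33 between ACOT12 and the mutant, with its other probe at −0.20.

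Adaptors and proximal kinases had medians of −0.01 with ACOT12 and 0.13 with the mutant over 32 probes. PIK3CB, a catalytic subunit of PI3K, read −0.34 ± 0.16 with ACOT12, and the RAS exchange factor SOS1 read 0.25 ± 0.17, with its other probe at 0.0025. With the mutant FRS3, an adaptor of FGF receptors, read −0.88 ± 0.21 (adjusted p = 0.104) and phospholipase PLCG1 0.77 ± 0.19 (adjusted p = 0.111). Sheddases and gamma secretase genes had medians of −0.04 and −0.11 over 12 probes. ADAM17, which releases EGFR ligands from the membrane, read −0.41 ± 0.18 with the mutant (adjusted p = 0.269) and 0.62 ± 0.18 between ACOT12 and the mutant (adjusted p = 0.107). With ACOT12 the gamma secretase subunit NCSTN read 0.27 ± 0.19, and ADAM9 read −0.31 ± 0.16, with its other 2 probes between −0.14 and −0.019. ADAM12 read 0.66 ± 0.27 with the mutant on 1 probe and 0.33 on its other. The first ADAM9 and ADAM12 probes given were dim, at 134 to 227 and 144 to 319 over the arrays, near the level required for a test.

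Negative regulators had medians of −0.04 with ACOT12 and −0.09 with the mutant over 33 probes. SPRY3 read 696 and 528 with empty vector, 740 and 619 with ACOT12 and 251 with the mutant. The ubiquitin ligase CBLB read 17388 and 11608, then 16546 and 15757, then 6079. For both genes the mutant array was the lowest, by −1.27 ± 0.24 and −1.22 ± 0.27 log2 units against empty vector (adjusted p = 0.0887 and 0.0963). With ACOT12 the RAS inhibitor NF1 read −0.44 ± 0.16 on 1 probe and SPRY4 −0.41 ± 0.18, each with weaker readings on other probes (−0.22 and −0.07 for NF1, −0.04 for SPRY4). That first NF1 probe was dim, at 193 and 207 with empty vector and 135 and 161 with ACOT12, near the level required for a test.

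Genes that ERK signalling is known to induce gave medians of −0.07 with ACOT12 and 0.07 with the mutant over 28 probes. PLAUR, the urokinase receptor, read 1848 and 1749 with empty vector, 1966 and 1732 with ACOT12 and 3743 with the mutant. The mutant array was thus the one that stood apart, by 1.06 ± 0.19 (adjusted p = 0.0850), with the other PLAUR probe at 0.54. HMGA2 read −1.06 ± 0.28 with the mutant on 1 probe and 0.09 on its other. The phosphatase gene DUSP4 read −0.46 ± 0.19 with ACOT12 on 1 probe (adjusted p = 1.00) and −0.098 on its other.

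Other receptor tyrosine kinases had 43 tested probes from 33 genes, and their medians were 0.08 with ACOT12 and −0.09 with the mutant. ALK read 1680 and 960 with empty vector, 1815 and 1763 with ACOT12 and 433 with the mutant. NTRK2, the BDNF receptor, read 2747 and 2002, then 3065 and 2800, then 941, though its other tested probe read −0.33 between ACOT12 and the mutant. EPHB6, an ephrin receptor without kinase activity, read 1306 and 1039, then 1422 and 1486, then 2798. Of these 3 genes ALK and NTRK2 were lowest and EPHB6 highest on the mutant array (EPHB6 against empty vector 1.26 ± 0.21, adjusted p = 0.0826). EPHB1 read −0.53 ± 0.18 and FLT1 0.37 ± 0.19 with ACOT12, without passing, and the other 3 tested FLT1 probes lay between −0.24 and 0.89.

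**Figure D4:**
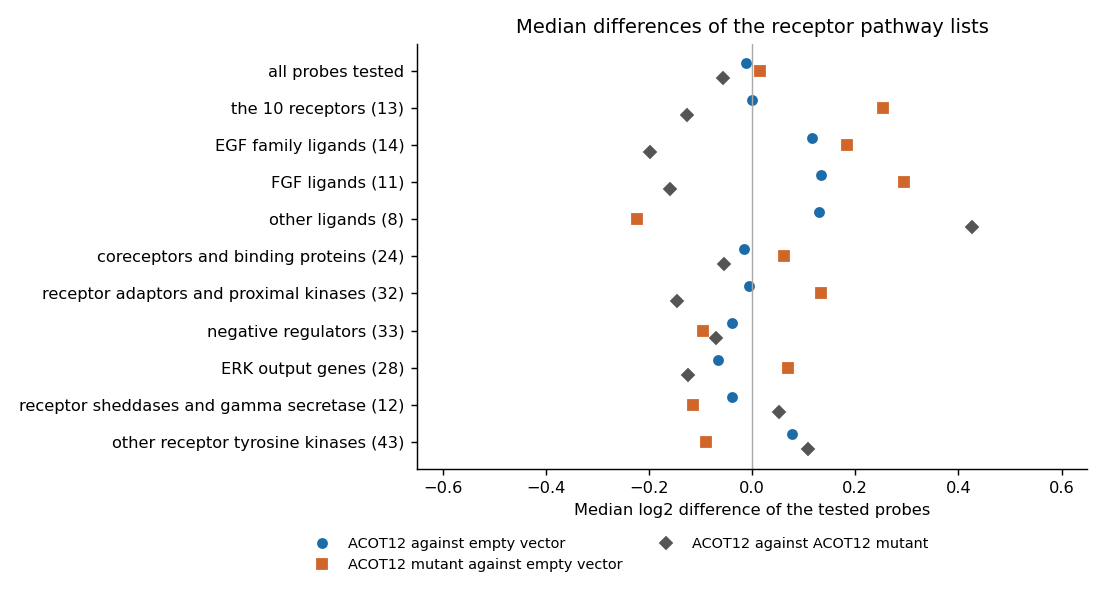
Median log2 difference of the tested probes of each pathway list (number of probes in parentheses), of the 13 receptor probes and of all probes, in the 3 comparisons (symbols). The receptors lie at 0.00048, 0.25 and −0.13 log2 units, beside −0.01, 0.02 and −0.06 for all probes. These are quantile normalized values. As deposited the receptor medians were 0.09, −0.01 and 0.07, beside 0.06, −0.13 and 0.14 for all probes.

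Among the receptors with a tested probe, AXL and FGFR3 had the widest log2 range over the 5 arrays on their brightest probe, and the probes of other genes nearest to them in pattern were sought by root mean square difference of centred log2 values. For FGFR3, with a range of 1.06, these were CFAP221 (0.06), CFAP263 (0.07) and ACSM1 (0.08). CFAP221 read 700 and 407 with empty vector, 695 and 351 with ACOT12 and 524 with the mutant, high on the arrays labelled replicate 1 as FGFR3 was. For AXL they were TFPI2 (0.21), RAVER2 (0.21) and FRMD6 (0.22). FRMD6 read 622 and 491, then 900 and 480, then 745. With 5 arrays and many probes to choose from, such likeness is a description of these arrays.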

How the data were processed

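RNA of 5 samples was labelled with Cy5 and hybridised to 1-colour arrays, per the labels' protocols. The deposited values are linear probe intensities, and the scanner, background correction and scaling were not given in the sources used here. Within each array all values under 2000 are whole multiples of a step between 0.913 and 1.13 (tolerance 0.02 steps), that is, whole readings times 1 factor. Values below 0 (3 arrays) were set to 0, 1 was added, log2 was taken and arrays were quantile normalized. Normalised intensity is that value back on the linear scale. All 18 receptor probes kept their symbol in a current RefSeq gene table; coordinates are left out because the sources used here name no build.

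Of 28264 probes the 21198 whose mean log2 level reached the 25th percentile were tested. One limma 3.58.1 model (lmFit, eBayes, R 4.3.3) covered the 5 arrays with no covariate, leaving 2 residual and 4.20 prior degrees of freedom. Tests were two-sided, with Benjamini-Hochberg adjustment over the 21198 probes and a threshold of 0.05. With 2 arrays a group, exact permutation cannot reach that threshold, so it was not used. The procedure was tested on 10 simulated data sets with 200 changed probes each. Changes of 1 log2 unit were recovered in 19.4% of cases for ACOT12 against empty vector and 3.02% for the mutant. For changes of 2 log2 units it was 91.7% and 82.9%. On average 6.1 and 5.3 unchanged probes were called. Every receptor difference in the normalised data was smaller than 1 log2 unit, a size that these tests mostly miss. Across probes, arrays of the same group correlated at 0.993 (empty vector) and 0.986 (ACOT12), empty vector with ACOT12 arrays at 0.989 to 0.993, and the mutant array with the others at 0.971 to 0.985. No value was identical between arrays.

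The receptors and lists (9 of pathway genes, 5 of cell markers) were chosen with earlier results of these data known. Named were all receptor probes, ACOT12, the probes past the threshold or else the 2 with the smallest p per list and comparison, and the 3 probes most like AXL and FGFR3. ALB, PTPRC and similar marker genes serve as checks. The alternatives tried were values as deposited, median centring, cyclic loess, no filter, a stricter filter, a larger offset, 1 probe per gene, an intensity trend, a replicate block and the omission of each array in turn. Receptor counts under them cover at most the 13 receptor probes that passed the filter. With no filter the 5 dim receptor probes were fitted too, and their results are not given. Precision is limited by the number of arrays.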

Additional observations from a re-analysis of the deposited data

How the results depend on the processing

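In ACOT12 against empty vector 0 receptor probes passed under every alternative run, and over all probes the count of 2 became 80 with median centring, 0 as deposited, 0 when probes under the 50th percentile were dropped, 1 with no filter, with the offset at the 10th percentile and with an intensity trend, and 0 to 3 with 1 array left out (1 without ACOT12 replicate 1, 0 without ACOT12 replicate 2). For the mutant against empty vector 3 receptor probes passed with median centring (2 higher, 1 lower). Over all probes the count of 10 (2 higher, 8 lower) became 6 as deposited (0 and 6), 2913 with median centring (1350 and 1563), 129 with cyclic loess (17 and 112), 50 with no filter and 2 with the 50th percentile filter. It was 0 to 296 with 1 array left out (296 without empty vector replicate 2, 0 without either ACOT12 array). Between ACOT12 and the mutant 1 receptor probe passed as deposited. Over all probes the count of 551 (504 and 47) became 2053 as deposited (2040 and 13), 4095 with median centring (2191 and 1904), 1436 with cyclic loess, 52 with no filter, 252 with the 50th percentile filter and 5 with 1 probe per gene, and 0 to 978 with 1 array left out (869 and 978 without empty vector replicates 1 and 2, 1 and 0 without ACOT12 replicates 1 and 2). With median centring the fit gave the receptor probes nearly the same spread, so its calls hardly weigh a probe's own spread. The cause of these changes was not tested.

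The labels give empty vector and ACOT12 arrays the same replicate numbers, but same-numbered arrays are not said to share a source. Over probes, deviations of same-numbered arrays correlated at 0.19. With the replicate block 2 probes passed in ACOT12 against empty vector, 1361 for the mutant against empty vector and 2347 between ACOT12 and the mutant, with 0 receptor probes in each. The direction turned under the block for AXL (0.25), FGFR3 (0.30) and IGF1R probe 1 (−0.039) between ACOT12 and the mutant.

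Other receptor differences, none past the threshold, turned in direction as follows. As deposited, ERBB2 (−0.015) and ERBB3 probe 3 (−0.12) turned for the mutant against empty vector. Between ACOT12 and the mutant EGFR probes 1 (0.014) and 3 (0.0031), IGF1R probe 2 (0.092), ERBB2 (0.30), FGFR3 (0.12) and ERBB3 probe 3 (0.068) turned. With median centring IGF1R probe 2 (−0.025) and MET probe 1 (−0.038) turned for ACOT12 against empty vector, MET probe 2 (0.10) and FGFR3 (0.066) for the mutant against empty vector, and MET probe 2 (−0.34), IGF1R probe 1 (−0.30) and ERBB3 probe 1 (−0.11) between ACOT12 and the mutant. IGF1R probe 2 became −0.00049 with the offset at the 10th percentile for ACOT12 against empty vector. ACOT12 itself between ACOT12 and the mutant turned from 0.16 to −0.16 with median centring and −0.11 with cyclic loess.

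With 1 array left out, values crossed 0 for ACOT12 against empty vector in AXL (−0.034 to 1.16), FGFR3 (−0.71 to 0.37), ERBB2 (−0.24 to 0.60), EGFR probe 3 (−0.020 to 0.20), MET probe 1 (−0.013 to 0.30), MET probe 2 (−0.22 to 0.029) and IGF1R probe 2 (−0.26 to 0.26). They did so for the mutant against empty vector in FGFR3 (−0.36 to 0.27). Between ACOT12 and the mutant they did so in AXL (−0.82 to 0.37), FGFR3 (−0.67 to 0.41), ERBB2 (−0.50 to 0.34), ERBB3 probe 1 (−0.11 to 0.31), MET probe 1 (−0.29 to 0.034), MET probe 2 (−0.025 to 0.23) and IGF1R probe 1 (−0.016 to 0.069). EGFR for the mutant against empty vector kept its direction on all 3 probes under every alternative that tested them. Most receptor values in that comparison did the same. With 1 array left out 51 of 52 kept their direction, and 4 of 108 turned under the other alternatives. All of these fits use the same mutant array, so they cannot stand in for a replicate of it. The ACOT12 probe did not pass without either ACOT12 array (adjusted p = 0.571 and 0.286 for ACOT12, 0.158 and 0.160 for the mutant, against empty vector). Signal over background limits FGFR1, FGFR2 and FGFR4, for which no test is reported.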

Other observations

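Because the deposited intensities are whole readings times 1 factor per array, the readings of the dim FGF receptors can be given in those whole units. The FGFR4 probe read −1 and −12 on the empty vector arrays, 12 and 37 on the ACOT12 arrays and 16 on the mutant array. FGFR1 probe PH_hs_0000085 read 16 and −4, then 52 and 55, then 25, and FGFR1 probe PH_hs_0047663 read 39 and 39, then 74 and 96, then 69. FGFR2 probe PH_hs_0024624 read 134 and 73, then 142 and 145, then 75, and FGFR2 probe PH_hs_0045627 read 87 and 49, then 103 and 98, then 66. On each of these 5 probes both ACOT12 arrays were above both empty vector arrays in whole readings. After normalization between arrays the groups overlapped on all but FGFR1 probe PH_hs_0000085. The 25th percentile of all probes as deposited was also higher on the ACOT12 arrays (193 and 200, against 169 and 131). How many of all probes had that order in whole readings was not counted, so it is not read as a result about these receptors.

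Of the cell line's own markers, the normalised intensity of the fetal liver protein AFP was 3512 and 3796 with empty vector, 3432 and 3272 with ACOT12 and 4000 with the mutant. APOC3 read 2103 and 1549, then 2122 and 2741, then 818. KRT18, a keratin of liver epithelium, read 131763 and 116219, then 125219 and 150332, then 127947. Markers of other cells that were bright enough to be tested included the collagen gene COL1A1, at 3642 and 2347, then 3841 and 3822, then 1039.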
